A study of Mus musculus with 9 samples.

Results

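Proteasome subunit genes were measured in 4T1 cells, an established mouse line derived from a mammary tumour. The genes were chosen by name: protein-coding genes whose symbol is Psma, Psmb, Psmc, Psmd or Psme followed by a number, without Psmb8, Psmb9 and Psmb10. This gave 40 of the 54532 genes in the deposited table, of which 16 encode core subunits, 20 carry regulatory names and 4 encode activators. The name rule uses no measured value. The family was picked for description with its counts in all 9 libraries and all 3 comparisons already known, so the counts of called genes and the medians below are descriptions and support nothing.

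RNA was sequenced in 3 libraries per group, after 24 h of treatment. Au_TCPP cells received Au/Cu-TCPP(Fe)-PEG, which the labels describe as acting like a glucose oxidase and as consuming glutathione (GSH). Cu_TCPP cells received Cu-TCPP(Fe)-PEG, described as consuming GSH, and Control cells received medium. All cells grew in high-glucose medium with serum and antibiotics. Doses are not given in the sources used here, and the labels do not say whether replicates were separate cultures. The p-values therefore measure only the spread between these libraries, which may be technical.

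Library totals lay between 15477324 and 17494776 counts. The epithelial markers Krt8, Krt18, Krt19, Krt7, Epcam and Cdh1 summed to 4412 to 5334 CPM in Au_TCPP, 2850.1 to 3185 CPM in Cu_TCPP and 2929.8 to 3188 CPM in Control, where CPM is the read count scaled to the TMM-adjusted library total. Enough counts for a test were found for 1 of 6 leukocyte, 1 of 4 fibroblast and 0 of 4 endothelial markers. The leukocyte sum was 53.7 to 75.9 CPM in Au_TCPP, 9.7 to 13.95 CPM in Cu_TCPP and 25.7 to 29.8 CPM in Control. Nearly all of it was Cd68, while the pan-leukocyte gene Ptprc was at most 0.169 CPM in any library. The fibroblast sum was at most 2.72 CPM and the endothelial sum at most 0.395 CPM in any library, and Lum was at 0 in all 9. The part of these sums in the results below was not tested. In RNA from a whole culture, a change in the RNA per cell and a change in the share of cells that express a gene cannot be told apart.

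The proteasome is the main protease for proteins tagged with ubiquitin. Its core particle is a barrel of outer alpha rings and inner beta rings, with the proteolytic sites inside. The regulatory particle caps the barrel, binds ubiquitin chains, removes them, and unfolds the substrate with a ring of ATPases, while activators dock to the barrel in its place. In mammals the transcription factor NRF1, encoded by Nfe2l1, raises the subunit genes together when proteasome activity is short, through antioxidant response elements. Interferons induce the activator genes Psme1 and Psme2 and the alternative catalytic subunits Psmb8, Psmb9 and Psmb10.

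Promoter windows of 300 bases, from 250 bases before the annotated start to 50 after it, were in the RefSeq table (GRCm38.p6) for 33 of the 40 genes. Psma8, Psmb1, Psmb2, Psmb7, Psmc3, Psmd3 and Psmd7 had no entry. The first windows below are of a pair of catalytic subunits with the letters of an antioxidant response element near the start (Psmb5 and Psmb6). Next are those of a pair of lid subunits that were higher with both materials (Psmd11 and Psmd12). The last windows are those of the activators Psme1 and Psme2, lower with Cu_TCPP than in Control, and Psme3, higher there. Each is written 5′ to 3′ on the strand of its gene, and capitals mark every match to any of the 5 motifs searched on both strands.
Psmb5 (chr14:54617946-54618245, minus strand): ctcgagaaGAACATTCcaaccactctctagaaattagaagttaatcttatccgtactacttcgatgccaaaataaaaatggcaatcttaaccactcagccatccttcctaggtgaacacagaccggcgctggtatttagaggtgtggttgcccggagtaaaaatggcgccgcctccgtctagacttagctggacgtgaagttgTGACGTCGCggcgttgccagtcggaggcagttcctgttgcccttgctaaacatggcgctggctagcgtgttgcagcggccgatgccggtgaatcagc
Psmb6 (chr11:70525107-70525406, plus strand): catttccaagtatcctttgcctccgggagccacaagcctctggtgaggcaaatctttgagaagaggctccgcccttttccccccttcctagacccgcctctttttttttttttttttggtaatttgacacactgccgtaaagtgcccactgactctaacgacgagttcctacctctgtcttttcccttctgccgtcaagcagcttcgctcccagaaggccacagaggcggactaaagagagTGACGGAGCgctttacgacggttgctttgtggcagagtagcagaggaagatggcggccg
Psmd11 (chr11:80428365-80428664, plus strand): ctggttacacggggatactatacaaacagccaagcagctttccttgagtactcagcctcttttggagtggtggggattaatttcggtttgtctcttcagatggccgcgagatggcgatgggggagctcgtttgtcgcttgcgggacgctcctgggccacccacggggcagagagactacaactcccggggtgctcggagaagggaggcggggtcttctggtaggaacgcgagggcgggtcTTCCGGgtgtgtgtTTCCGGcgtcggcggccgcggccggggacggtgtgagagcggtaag
Psmd12 (chr11:107479278-107479577, plus strand): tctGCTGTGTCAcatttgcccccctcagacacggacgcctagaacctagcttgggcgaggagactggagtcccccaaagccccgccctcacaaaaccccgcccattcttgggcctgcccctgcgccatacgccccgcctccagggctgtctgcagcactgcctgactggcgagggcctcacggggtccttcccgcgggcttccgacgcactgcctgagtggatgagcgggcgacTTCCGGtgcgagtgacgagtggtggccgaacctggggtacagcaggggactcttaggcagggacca
Psme1 (chr14:55578244-55578543, plus strand): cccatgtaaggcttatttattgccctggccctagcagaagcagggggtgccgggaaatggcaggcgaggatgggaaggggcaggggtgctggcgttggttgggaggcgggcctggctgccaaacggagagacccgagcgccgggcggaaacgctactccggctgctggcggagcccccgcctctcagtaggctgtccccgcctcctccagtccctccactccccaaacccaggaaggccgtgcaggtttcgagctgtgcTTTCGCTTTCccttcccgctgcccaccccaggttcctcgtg
Psme2 (chr14:55590972-55591271, minus strand): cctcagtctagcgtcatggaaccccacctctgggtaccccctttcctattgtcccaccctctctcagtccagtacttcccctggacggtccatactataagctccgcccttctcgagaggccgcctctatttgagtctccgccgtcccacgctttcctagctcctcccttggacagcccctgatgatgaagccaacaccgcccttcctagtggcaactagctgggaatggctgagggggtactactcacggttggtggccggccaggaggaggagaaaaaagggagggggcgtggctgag
Psme3 (chr11:101315963-101316262, plus strand): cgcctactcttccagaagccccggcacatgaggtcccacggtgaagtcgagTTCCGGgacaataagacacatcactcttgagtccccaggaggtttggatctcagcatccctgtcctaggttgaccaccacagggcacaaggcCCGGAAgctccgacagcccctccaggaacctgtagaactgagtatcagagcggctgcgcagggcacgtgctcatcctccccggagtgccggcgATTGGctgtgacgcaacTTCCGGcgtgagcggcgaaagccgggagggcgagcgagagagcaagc

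Positions are counted from 1 at the annotated start, with negative numbers upstream and no 0. The antioxidant response element (TGACNNNGC) began at -47 in Psmb5 and at -9 in Psmb6, and lay on the opposite strand from -247 in Psmd12. It was in the windows of 6 genes (Psmb5, Psmb6, Psmc6, Psmd9, Psmd12 and Psme4), which is 6 of the 36 windows that the 33 genes have (16.7%), against 12.4% of all 32851 windows in the table. The heat shock element (GAANNTTC) was in 1 of the 36 windows, Psmb5 at -242 (2.78%, against 7.86% of all windows). The interferon-stimulated response element (GAAA, any 2 bases, GAAA) was in 4 of the 36 windows (11.1%, against 3.44% of all windows). They were those of Psmb3, Psmd4, Psmd9 and Psme1, where it lay on the opposite strand from 10. Psme2 had no match to any of the 5 motifs in the window printed above. Another window of Psme2, from a start further upstream (chr14:55591052-55591351), is not printed and had no match either. The CCAAT box (CCAAT) was in 13 of the 36 windows (36.1%, against 37.4% of all windows), among them Psme3 on the opposite strand from -14.

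The binding motif of ETS transcription factors (CCGGAA) was in 18 of the 36 windows, those of 17 genes, against 14.9% of all windows. A median of 58.2% of the bases in the proteasome windows were G or C, against 52.7% in all windows. Psmd11 had it from -10 and from 5 and Psmd12 from -16, all on the opposite strand, and Psme3 had it from -199, -107 and 4. None of the matches printed above overlapped another. A match describes letters in a window and shows neither binding nor a cause.

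With Au_TCPP, the proteasome genes stood higher than in Control as a family, and with Cu_TCPP they stood higher by less, with the activators Psme1 and Psme2 going the other way. The 40 genes took 0.910, 0.770 and 0.973% of all counts in Au_TCPP replicates 1, 2 and 3, 0.687, 0.698 and 0.696% in Cu_TCPP and 0.537, 0.543 and 0.544% in Control. The 3 groups did not overlap in this share, which is scaled by library totals alone, without TMM factors. Of the 40 genes, 38 had enough counts for a test. Psma8, a testis form of an outer ring subunit, had 0 counts in all libraries, and Psmb11, a thymus form of a catalytic subunit, had 2 counts in all.

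Fold changes are on the log2 scale with their standard error, from edgeR's quasi-likelihood test on all 9 libraries with TMM scaling, and a gene is called when its p, adjusted over all 13915 genes tested, is under 0.05. In Au_TCPP against Control, 38 of the 38 genes were called higher and 0 lower, where 34.4% of all genes tested were called higher and 34.7% lower. Their median was 1.21, against -0.01 for all genes tested. Scaled by library totals alone, all genes tested had a median of -0.43. On that scale 33 of the 38 were called higher and 0 lower, beside 2626 of all 13915 genes called higher and 7098 lower. Psmd2, Psmd9, Psmd10, Psme3 and Psme4 lay between -0.13 and -0.0003 there without a call. In Cu_TCPP against Control, 26 were called higher, 2 lower and 10 were not called, beside 19.2% of all genes called higher and 21.2% lower. Their median was 0.39, against -0.01 for all genes.

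**Figure D1:**
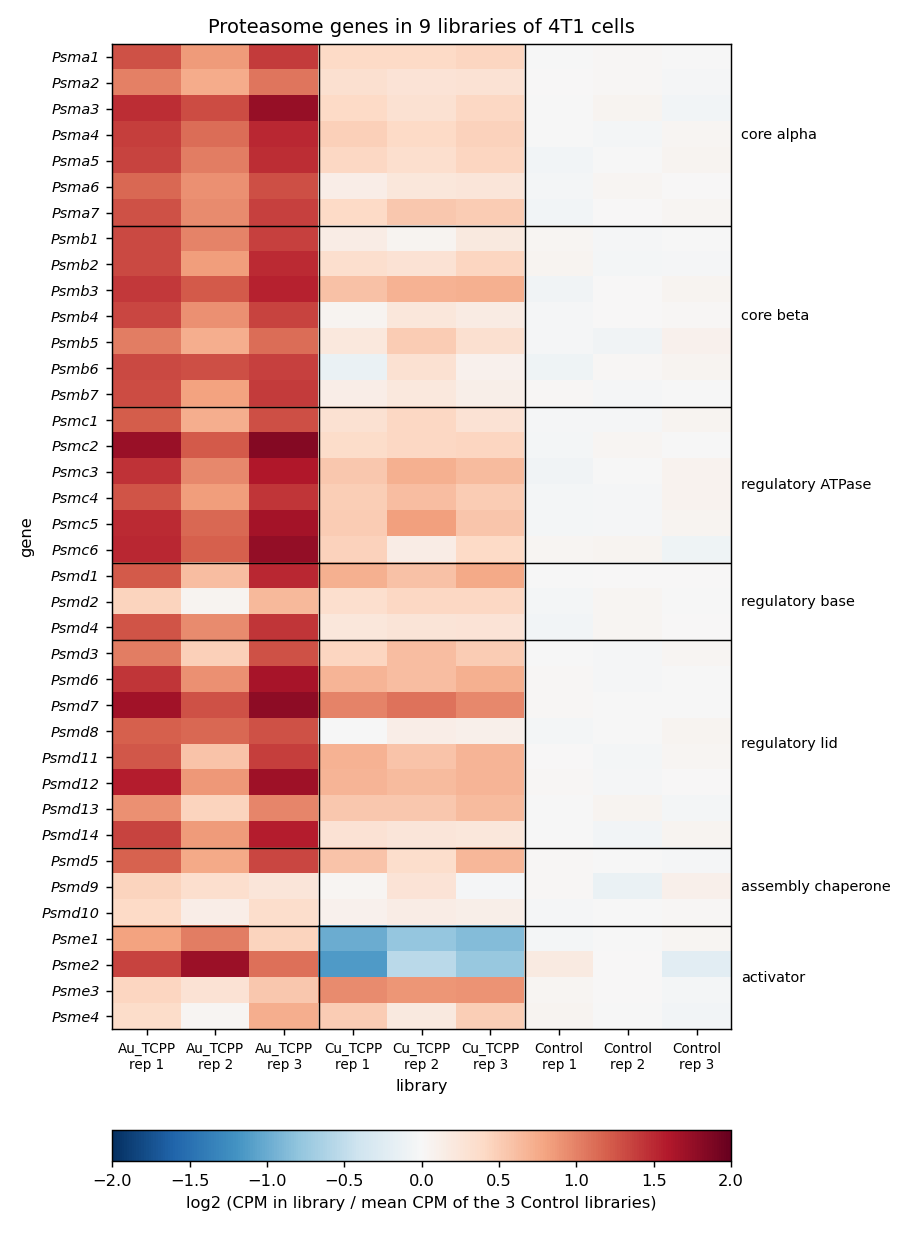
Level of the 38 proteasome genes tested in each of the 9 libraries, as log2 of the CPM in the library over the mean CPM of the 3 Control libraries. Columns are libraries, with Au_TCPP on the left, Cu_TCPP in the middle and Control on the right, and rows are genes grouped by role. Psme1 and Psme2 are the rows well below 0 in Cu_TCPP.

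The 3 comparisons share libraries, so their values are set side by side and not correlated. The alpha subunits form the outer rings and the gate of the core. All 7 tested were called higher in Au_TCPP than in Control (median 1.20, range 0.95 to 1.52), and 6 of 7 in Cu_TCPP (median 0.40, range 0.20 to 0.48). Of all genes tested, 34.4% were called higher with Au_TCPP and 19.2% with Cu_TCPP. Psma3 had 268, 238 and 322 CPM in Au_TCPP, 128, 119.5 and 128 CPM in Cu_TCPP and 95.9, 100.3 and 93 CPM in Control. Its 3 groups did not overlap, with fold changes of 1.52 ± 0.10 for Au_TCPP (adjusted p = 1.3e-08) and 0.37 ± 0.10 for Cu_TCPP (adjusted p = 0.0098) against Control. Psma7 averaged 487 ± 72.9 CPM in Au_TCPP, 296 ± 15.2 CPM in Cu_TCPP and 212 ± 7.38 CPM in Control (SD, n = 3). Psma6 was the alpha gene not called with Cu_TCPP, at 207 ± 7.71 CPM against 180.1 ± 5.15 CPM in Control (adjusted p = 0.11), although its libraries did not overlap. In a fit of these 6 libraries alone Psma6 was called (adjusted p = 0.0036). That fit called 3751 of all genes higher in place of 2673. The Cu_TCPP call of Psma2 ended without Cu_TCPP replicate 1 or 3 or any Control library (adjusted p = 0.0505 to 0.057).

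Among the beta subunits, which form the inner rings, all 7 tested were called higher in Au_TCPP than in Control (median 1.24) and 3 of 7 in Cu_TCPP (median 0.16). Beside them, 34.4% of all genes were called higher with Au_TCPP and 19.2% with Cu_TCPP. The catalytic subunits are Psmb5, Psmb6 and Psmb7. Psmb5, the chymotrypsin-like subunit and main target of clinical proteasome inhibitors, had 89.1, 72.6 and 95.5 CPM in Au_TCPP, 50.9, 62.2 and 54.7 CPM in Cu_TCPP and 43.3, 41.9 and 46.4 CPM in Control. It was called higher with both materials, by 0.97 ± 0.11 with Au_TCPP (adjusted p = 1.7e-06) and 0.35 ± 0.11 with Cu_TCPP (adjusted p = 0.018). The Cu_TCPP call of Psmb5 ended without Cu_TCPP replicate 2 or Control replicate 1 or 2 (adjusted p = 0.058 to 0.088).

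Psmb6, the caspase-like subunit, had 259, 253 and 267 CPM in Au_TCPP, 94.9, 128 and 111 CPM in Cu_TCPP and 98.5, 106 and 108 CPM in Control. Cu_TCPP and Control overlapped (0.10 ± 0.10, adjusted p = 0.47), and Au_TCPP stood above both (1.32 ± 0.10 over Control). Psmb7, the trypsin-like subunit, stood at 197 ± 39.9 CPM in Au_TCPP, 96 ± 3.17 CPM in Cu_TCPP and 86.2 ± 1.11 CPM in Control, and was not called with Cu_TCPP (adjusted p = 0.32). Its exons overlap those of Nek6 on the opposite strand, which has 39% as many counts. Its level is therefore uncertain, as no source used here says whether reads were counted by strand. Of the structural beta subunits, Psmb3 was called higher with Cu_TCPP (0.67 ± 0.09, adjusted p = 7.5e-05), and so was Psmb2 (0.35 ± 0.13, adjusted p = 0.044). The Psmb2 call ended with limma on FPKM and without any Cu_TCPP or Control library or Au_TCPP replicate 1 (adjusted p = 0.055 to 0.14). Psmb1 and Psmb4 were not called with Cu_TCPP (0.13 ± 0.10 and 0.15 ± 0.11). In the fit of these 6 libraries alone, Psmb1, Psmb4 and Psmb7 were called (adjusted p = 0.039, 0.021 and 0.02), where 3751 of all genes were called higher in place of 2673.

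The 6 ATPases of the regulatory particle (Psmc1 to Psmc6) pull substrates into the core. All 6 were called higher with Au_TCPP (median 1.40, beside 34.4% of all genes) and all 6 with Cu_TCPP (median 0.47, beside 19.2% of all genes). Psmc2 had the largest fold change of the family in Au_TCPP against Control, 3.07-fold, with 446, 313 and 479 CPM in Au_TCPP, 173, 179 and 182 CPM in Cu_TCPP and 131, 139 and 133 CPM in Control. Its lowest Au_TCPP library stood well above its highest Cu_TCPP and Control libraries. Psmc5 rose 1.55-fold with Cu_TCPP, to 119, 147 and 122 CPM against 80.6, 82.2 and 86.8 CPM in Control. Psmc3 changed by 1.55-fold, but Slc39a13 overlaps it on the opposite strand with 40.0% as many counts, so its values are uncertain. The Cu_TCPP call of Psmc1 ended without any Cu_TCPP or Control library (adjusted p = 0.066 to 0.11). That of Psmc2 ended without Cu_TCPP replicate 2 or 3 or Control replicate 1 or 3 (adjusted p = 0.051 to 0.063). That of Psmc6 ended with limma on FPKM and without Cu_TCPP replicate 1 or 3, Au_TCPP replicate 1 or any Control library (adjusted p = 0.054 to 0.15).

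**Figure D2:**
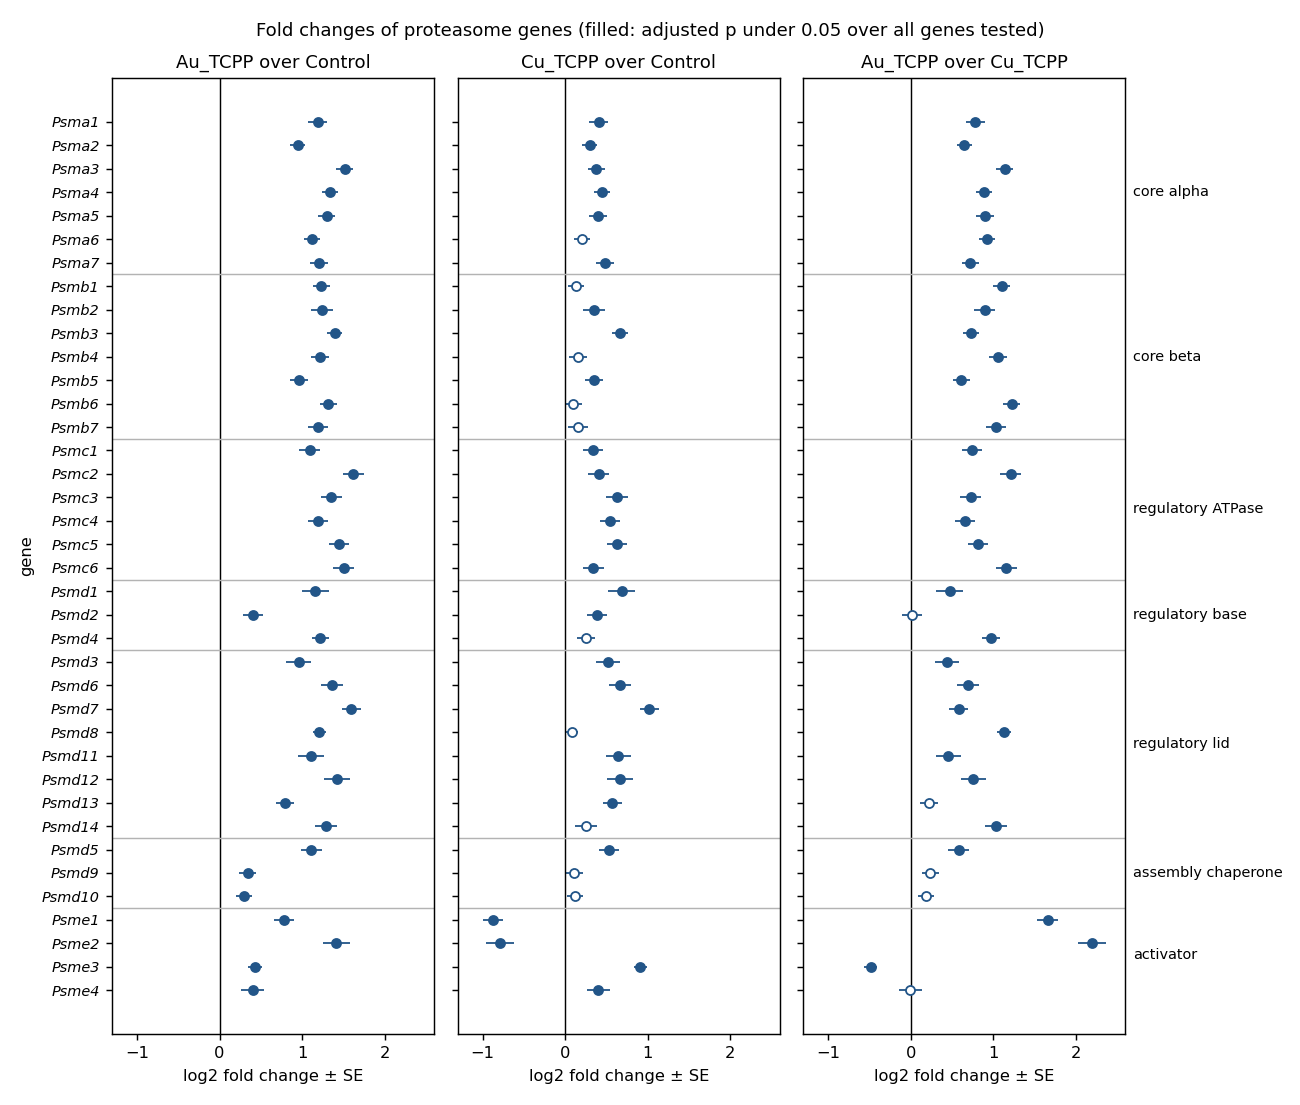
Log2 fold change of each proteasome gene with its standard error in the 3 comparisons, with genes grouped by role down the page. Filled points have an adjusted p under 0.05 over all genes tested, open points do not. All 38 points are filled and right of 0 for Au_TCPP over Control, while Psme1 and Psme2 lie left of 0 for Cu_TCPP over Control.

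The base of the regulatory particle also holds the scaffold subunits Psmd1 and Psmd2 and the ubiquitin receptor Psmd4. Psmd2 had 612, 467 and 705 CPM in Au_TCPP, 569, 600.5 and 596 CPM in Cu_TCPP and 439, 463 and 447 CPM in Control. The Au_TCPP libraries lay on both sides of the Cu_TCPP ones (0.01 ± 0.12, adjusted p = 0.92). Against Control, Psmd2 was called higher with both materials, by 0.40 ± 0.12 with Au_TCPP (adjusted p = 0.0074, and -0.03 with library totals alone) and 0.39 ± 0.12 with Cu_TCPP (adjusted p = 0.017). The Cu_TCPP call ended without Cu_TCPP replicate 2 or 3 or Control replicate 1 or 3 (adjusted p = 0.052 to 0.062). Psmd1 stood at 396 ± 117 CPM in Au_TCPP, 285 ± 16.9 CPM in Cu_TCPP and 177 ± 1.52 CPM in Control, and was called higher with both. Psmd4 rose to 386 ± 62.7 CPM with Au_TCPP, against 166 ± 6.02 CPM in Control, and stood at 197 ± 4.1 CPM in Cu_TCPP without a call (adjusted p = 0.071). Psmd4 was called with Cu_TCPP in 7 alternatives, DESeq2, RLE factors and leaving out Au_TCPP replicate 2 or 3 among them (adjusted p = 0.034, 0.048, 0.0028 and 0.028).

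The lid removes ubiquitin chains. All 8 lid genes were called higher with Au_TCPP (median 1.25) and 6 of 8 with Cu_TCPP (median 0.61). The shares of all genes called higher were 34.4% and 19.2%. Psmd7, the partner of the deubiquitinase Psmd14, had the largest rise of the family with Cu_TCPP, 2.02-fold (1.02 ± 0.11, adjusted p = 1.2e-05). It had 329, 247 and 355 CPM in Au_TCPP, 205, 218 and 199.9 CPM in Cu_TCPP and 104, 102 and 102 CPM in Control, with no overlap between any 2 groups. Psmd14 stood at 256, 182 and 299.6 CPM in Au_TCPP, 123, 119 and 117 CPM in Cu_TCPP and 100.1, 96.9 and 104 CPM in Control. It was called with Au_TCPP (1.29 ± 0.14, adjusted p = 9.6e-07) and not with Cu_TCPP (0.25 ± 0.13, adjusted p = 0.15, and 0.0044 without Au_TCPP replicate 2).

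Psmd12 stood at 321, 198 and 352 CPM in Au_TCPP, 173, 168 and 172 CPM in Cu_TCPP and 110.4, 106 and 108 CPM in Control, so that Au_TCPP replicate 2 lay closer to the Cu_TCPP libraries than to the other Au_TCPP libraries. Psmd6 and Psmd11 rose 1.59-fold and 1.57-fold with Cu_TCPP, and 2.57-fold and 2.15-fold with Au_TCPP. Psmd8 differed from them in Cu_TCPP, at 348 ± 15.9 CPM in Au_TCPP, 159 ± 7.8 CPM in Cu_TCPP and 150.5 ± 4.6 CPM in Control. It was 1.06-fold its Control level with Cu_TCPP (adjusted p = 0.46, overlapping libraries) and 2.31-fold with Au_TCPP (adjusted p = 1.1e-08). Psmd13 rose 1.49-fold with Cu_TCPP and 1.73-fold with Au_TCPP, and Psmd3 rose 1.43-fold and 1.94-fold, where the Cu_TCPP call of Psmd3 ended without Cu_TCPP replicate 2 (adjusted p = 0.055).

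Psmd5, Psmd9 and Psmd10 carry subunit names but encode chaperones that assemble the base and leave the finished particle. Psmd5 rose to 167 ± 32.8 CPM with Au_TCPP and 112 ± 12.2 CPM with Cu_TCPP, against 77.5 ± 1.14 CPM in Control. Psmd9 and Psmd10 had the smallest fold changes of the family in Au_TCPP against Control, 0.34 ± 0.11 and 0.30 ± 0.10, and stood below 0 with library totals alone (-0.08 and -0.13). The Psmd10 call also ended with an offset for gene length (0.00, adjusted p = 0.97), without Au_TCPP replicate 1 (0.052) and with no filter on low counts (0.093), and the Psmd9 call ended without Control replicate 2 (0.057). Neither was called with Cu_TCPP (adjusted p = 0.44 and 0.35).

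The activators did not move together. Psme1 and Psme2, which form a ring-shaped activator that interferon induces, had their lowest levels in Cu_TCPP and their highest in Au_TCPP. Psme1 had 139, 162 and 108 CPM in Au_TCPP, 39.7, 46.1 and 43.4 CPM in Cu_TCPP and 77.5, 79.2 and 81.1 CPM in Control. It fell by 0.88 on the log2 scale with Cu_TCPP (SE 0.12, adjusted p = 6.8e-05) and rose by 0.78 with Au_TCPP (SE 0.12, adjusted p = 3.7e-05), with no overlap between groups. Psme2 had 76, 98.2 and 64.2 CPM in Au_TCPP, 13.7, 20.5 and 17.7 CPM in Cu_TCPP and 33.6, 30.2 and 25.7 CPM in Control. It fell by 0.79 with Cu_TCPP (SE 0.17, adjusted p = 0.0025) and rose by 1.41 with Au_TCPP (SE 0.16, adjusted p = 3.8e-06), and its groups did not overlap either. The leukocyte marker sum given above, which was nearly all Cd68, had the same order of groups, highest in Au_TCPP and lowest in Cu_TCPP. Its part in these values was not tested.

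Psme2b, a near-identical copy of Psme2 outside the name rule, may share its reads, so Psme2 is uncertain. Psme2b had 37.2, 71.6 and 30.4 CPM in Au_TCPP, 16.4, 17 and 15.5 CPM in Cu_TCPP and 24.2, 32.4 and 32.8 CPM in Control, lower with Cu_TCPP (adjusted p = 0.039, and 0.078 to 0.1 without any Cu_TCPP library or Control replicate 2 or 3, and 0.14 with no filter on low counts) and not called with Au_TCPP (adjusted p = 0.066). Psme3 encodes a nuclear activator that forms a ring of its own. It stood highest in Cu_TCPP, at 117, 106 and 126 CPM in Au_TCPP, 167, 160.2 and 161 CPM in Cu_TCPP and 88.5, 87 and 84.1 CPM in Control. It rose by 0.91 ± 0.08 with Cu_TCPP (adjusted p = 2.1e-06), and by 0.43 ± 0.08 with Au_TCPP (adjusted p = 3.4e-04), where library totals alone gave -0.0003. Psme4, a large nuclear activator, rose 1.32-fold with Au_TCPP and 1.32-fold with Cu_TCPP, at 195 ± 46.1 CPM in Au_TCPP, 195 ± 22.8 CPM in Cu_TCPP and 148 ± 5.46 CPM in Control. Its Au_TCPP libraries overlapped Control, and library totals alone gave -0.03. The Au_TCPP call of Psme4 ended with limma on FPKM and without Au_TCPP replicate 3 or Control replicate 2 or 3 (adjusted p = 0.053 to 0.12), and the Cu_TCPP call with limma on FPKM and without Cu_TCPP replicate 1 or 3 or any Control library (adjusted p = 0.054 to 0.12).

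**Figure D3:**
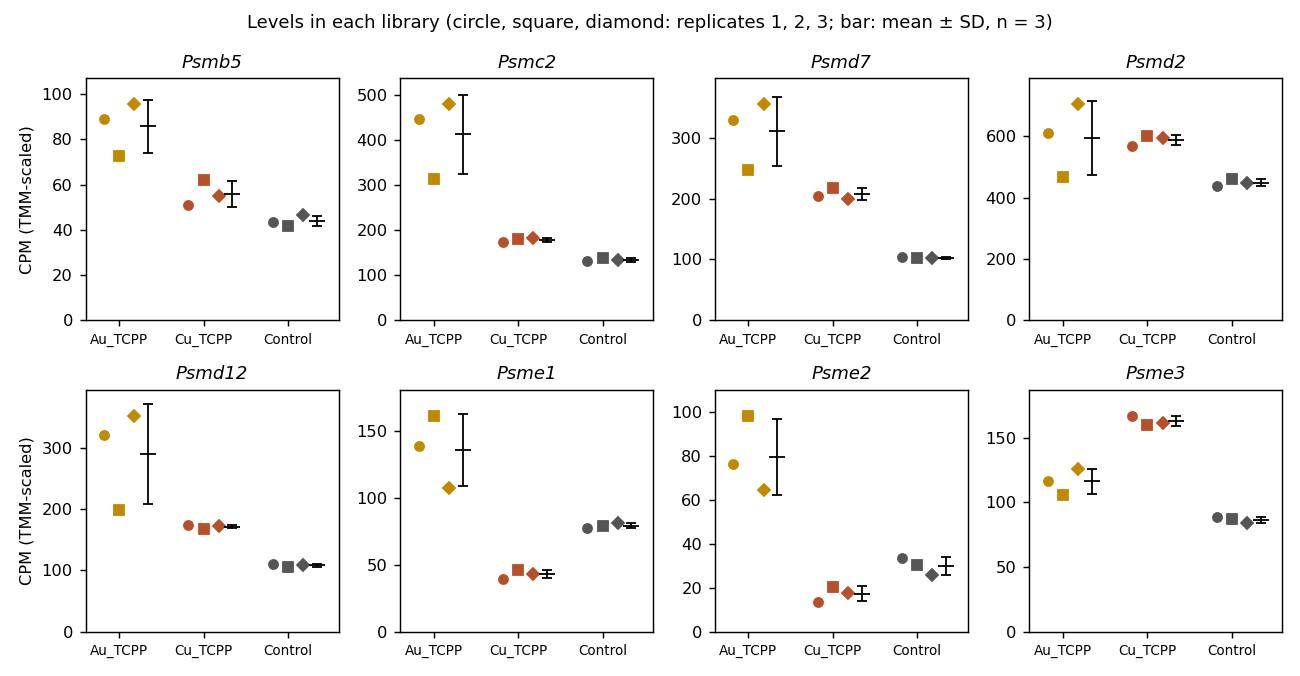
CPM of 8 proteasome genes in each library, scaled by TMM factors, with all axes from 0. Symbols are replicates 1, 2 and 3, and bars give the mean ± SD of 3 libraries. Psme1 and Psme2 are lowest in Cu_TCPP, Psme3 is highest there, and Psmd2 has Au_TCPP libraries on both sides of the Cu_TCPP ones.

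Psmb8, Psmb9 and Psmb10, the catalytic subunits that replace Psmb5, Psmb6 and Psmb7 after interferon, are outside the family by its rule. In Au_TCPP against Control 2 of the 3 were called higher and 0 lower (34.4 and 34.7% of all genes), and in Cu_TCPP 0 were called higher and 2 lower (19.2 and 21.2% of all genes). Psmb8 had 30.2, 62.3 and 21.3 CPM in Au_TCPP, 2.44, 4.3 and 3.78 CPM in Cu_TCPP and 11.4, 11.7 and 12.7 CPM in Control. It was called lower with Cu_TCPP (-1.76 ± 0.42, adjusted p = 0.0089) and higher with Au_TCPP (1.67 ± 0.36, adjusted p = 0.0024). Psmb9 was called lower with Cu_TCPP (-2.11 ± 0.54, adjusted p = 0.012), and these calls of Psmb8 and Psmb9 ended with no filter on low counts (adjusted p = 0.053 and 0.072). The Au_TCPP libraries of Psmb9 overlapped Control, at 6.72, 22.1 and 5.21 CPM against 7.0, 8.63 and 9.05 CPM, and without replicate 2 its fold change there was -0.46 (adjusted p = 0.038). Psmb10 was called higher with Au_TCPP (1.02 ± 0.22, and 0.62 with an adjusted p of 0.053 with library totals alone). It was not called with Cu_TCPP (-0.36 ± 0.22, adjusted p = 0.23, and 0.0097 without Au_TCPP replicate 2).

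The materials differ in the gold that Au_TCPP carries, and as doses are not given the comparison between them is one of the doses used. In Au_TCPP against Cu_TCPP, 32 of the 38 genes were higher, 1 lower and 5 not called, beside 34.6% of all genes called higher and 31.3% lower. Their median was 0.75, against 0.04 for all genes tested. With library totals alone, where all genes tested had a median of -0.33, the family median was 0.37. On that scale 27 of the family were called higher and 3 lower (Psmd2, Psme3 and Psme4). Of all genes tested, 2830 were called higher and 6526 lower. With TMM scaling all 14 core genes tested were called higher, with medians of 0.89 for the alpha and 1.03 for the beta subunits, and all 6 ATPases, with a median of 0.78. The 8 lid genes had a median of 0.64, with 7 called higher. With library totals alone these medians were 0.51 for the alpha subunits, 0.65 for the beta subunits, 0.40 for the ATPases and 0.25 for the lid genes, with 4 of the 8 lid genes called higher.

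The distance between the beta and lid medians differed between the comparisons. Against Control, the beta subunits had a median of 1.24 and the lid genes 1.25 with Au_TCPP, while with Cu_TCPP these medians were 0.16 and 0.61. That difference between roles was not tested. With an offset for gene length the beta and lid medians were 1.09 and 1.25 with Au_TCPP, and 0.26 and 0.70 with Cu_TCPP. Psme2 (4.6-fold) and Psme1 (3.16-fold) stood furthest above Cu_TCPP in Au_TCPP, followed by Psmb6 (2.33-fold), Psmc2 (2.32-fold) and Psmc6 (2.24-fold). Psme3 was the gene called lower, at -0.49 ± 0.08 (adjusted p = 1.0e-04). The genes not called were Psmd2, Psmd9, Psmd10, Psmd13 and Psme4, all with overlapping libraries.

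The calls of Psmd1, Psmd3 and Psmd11 in Au_TCPP against Cu_TCPP had fold changes of 0.47 ± 0.16, 0.44 ± 0.15 and 0.46 ± 0.15 (adjusted p = 0.02, 0.018 and 0.019). Each had overlapping libraries and lost its call with library totals, in the fit of these 6 libraries alone, with limma on FPKM, and without Au_TCPP replicate 1 or 3 (adjusted p = 0.051 to 0.71). The calls of Psmd1 and Psmd11 also ended without Cu_TCPP replicate 2, and that of Psmd3 without Cu_TCPP replicate 1 or 3. Psmd2, Psmd10 and Psmd13 were called higher without Au_TCPP replicate 2 (adjusted p = 0.049, 0.016 and 1.6e-04), and Psmd9 without Cu_TCPP replicate 2 or Au_TCPP replicate 3 (adjusted p = 0.016 and 0.041).

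Gene length moved with the Au_TCPP comparisons. Over all genes tested, which are not independent replicates, log2 fold change and gene length had a Spearman correlation of -0.30 in Au_TCPP against Control and against Cu_TCPP, and of -0.00785 in Cu_TCPP against Control. The mean length of the gene a read was counted in was 4607 ± 60.2 nt in Au_TCPP, 5650 ± 62.4 nt in Cu_TCPP and 5688 ± 61.6 nt in Control (SD, n = 3). The proteasome genes tested had a median length of 2814 nt, against 3861 nt for all genes tested. Psmb5 is the shortest of them in the table, at 899 nt, and with an offset for gene length it was not called in Au_TCPP against Cu_TCPP (0.14, adjusted p = 0.32, in place of 0.61 ± 0.11). With the offset, 37 of 38 were called higher in Au_TCPP against Control (median 1.14), and the median in Au_TCPP against Cu_TCPP was 0.55. In that fit 4881 of all 13915 genes were called higher in Au_TCPP against Control. The medians of all genes were 0.04 against Control and -0.0018 against Cu_TCPP.

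Au_TCPP replicate 2 stood apart within its group. It had the lowest CPM of the 3 Au_TCPP libraries in 33 of the 34 core and regulatory genes tested, at a median of 0.732 of the mean of replicates 1 and 3 (range 0.587 to 0.998 over the 34). The exception was Psmd9. These CPM are TMM-scaled, and a larger factor lowers them. The factor was 0.889 for replicate 2, and 0.817 and 0.793 for replicates 1 and 3. By share of all counts, the 40 genes stood at 0.770% in replicate 2, against 0.910 and 0.973% in replicates 1 and 3. The share of all genes tested in which replicate 2 was lowest was not computed. Over 12946 and 12927 genes, replicate 2 differed from replicates 1 and 3 by a chi-square over degrees of freedom of 32.2 and 40.6. Replicates 1 and 3 differed by 10.2 over 12770 genes. Replicate 2 had the highest CPM of the 3 in Psme1 and Psme2 and in all 3 of Psmb8, Psmb9 and Psmb10. In those last 3 it stood at a median of 2.42 times the mean of the others. Mitochondrially encoded genes took 2.37% of its counts, against 1.09 to 1.47% in the other 8 libraries. Without this library the family medians were 1.34 in Au_TCPP against Control and 0.92 against Cu_TCPP. In Cu_TCPP against Control, 31 family genes in place of 26 were called higher, beside 3521 of all genes in place of 2673. The library enters that comparison only through the shared estimate of the spread.

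**Figure D4:**
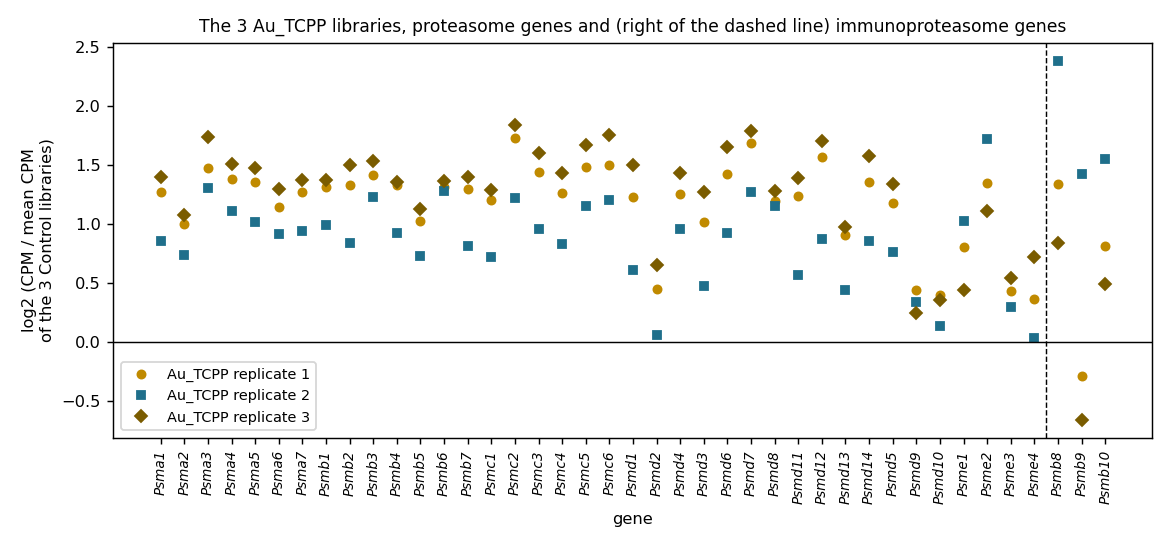
The 3 Au_TCPP libraries for each proteasome gene, with Psmb8, Psmb9 and Psmb10 right of the dashed line, as log2 of the CPM over the mean CPM of the Control libraries. Squares (replicate 2) lie below the other symbols in 33 of the 34 core and regulatory genes and above them in Psme1, Psme2, Psmb8, Psmb9 and Psmb10.

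Levels can be compared between genes only per length. In CPM per kilobase of the deposited gene length, Psmb4 led in Control (152 ± 2.6), followed by Psma6 (146 ± 4.17), Psmd2 (111 ± 2.96) and Psma5 (104 ± 3.6). Psmb4 and Psma6 differed by less than the sum of their SDs, and Psmd2 stood below both by more than that. In Au_TCPP, Psmb4 stood at 353 ± 56.8, Psma6 at 318 ± 41.5, Psma5 at 256 ± 40.7 and Psmd2 at 147 ± 29.6 CPM per kilobase. Psmd9 had the lowest level of the genes tested, 5.29 ± 0.363 in Au_TCPP, 4.49 ± 0.508 in Cu_TCPP and 4.17 ± 0.33 in Control. These lengths are those of the deposited table and understate the level of a gene whose main transcript is shorter.

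Genes around the particle were taken from lists of textbook roles. Their counts stand beside 34.4% of all genes called higher and 34.7% lower in Au_TCPP against Control, and 19.2% higher and 21.2% lower in Cu_TCPP against Control. Of 7 further subunits and bound proteins, 5 were called higher and 1 lower with Au_TCPP against Control, and 5 higher and 0 lower with Cu_TCPP. Adrm1, a ubiquitin receptor of the base, had 315, 196 and 374 CPM in Au_TCPP, 139.8, 160.0 and 139 CPM in Cu_TCPP and 85.8, 87.2 and 86.1 CPM in Control. It rose 3.42-fold with Au_TCPP and 1.7-fold with Cu_TCPP, with no overlap between groups. Usp14 and Uchl5, deubiquitinases bound to the particle, rose 2.59-fold and 2.05-fold with Au_TCPP, and 1.42-fold and 1.33-fold with Cu_TCPP. Sem1, a small lid subunit, rose 2.0-fold with Au_TCPP and stood at 83.9 ± 9.87 CPM in Cu_TCPP against 84.4 ± 1.91 CPM in Control. Ube3c, a ubiquitin ligase of the particle, was lower with Au_TCPP, at 88.7 ± 5.5 CPM, than in Control, at 143 ± 1.33 CPM, and higher with Cu_TCPP (174 ± 8.81 CPM). Ecpas was not called in any comparison, and was called higher with Au_TCPP over Control and over Cu_TCPP under the offset for gene length (0.36 and 0.23).

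All 5 assembly chaperones of the core (Psmg1 to Psmg4 and Pomp) were called higher with Au_TCPP (34.4% of all genes) and 3 of them with Cu_TCPP (19.2% of all genes). Pomp, which matures the assembling core, had 147, 153 and 146 CPM in Au_TCPP, 89.8, 94.8 and 90.1 CPM in Cu_TCPP and 73.8, 68.3 and 70.4 CPM in Control, 2.1-fold and 1.29-fold over Control. Psmg4 rose 2.26-fold with Au_TCPP and was not called with Cu_TCPP (adjusted p = 0.94). Psmg1, Psmg2 and Psmg3 lost their Au_TCPP calls with library totals alone (adjusted p = 0.16, 0.33 and 0.73).

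Of 9 genes listed around NRF1 and the control of the proteasome, 3 were called higher and 1 lower with Au_TCPP. The share called higher is near the 34.4% of all genes. With Cu_TCPP 3 were called higher and 4 lower, beside 19.2% and 21.2% of all genes. Nfe2l1 had 543, 539 and 551 CPM in Au_TCPP, 367, 418 and 374 CPM in Cu_TCPP and 472, 499.7 and 489 CPM in Control. It was lower with Cu_TCPP (-0.33 ± 0.08, adjusted p = 0.005) and not called with Au_TCPP (0.16 ± 0.08, adjusted p = 0.095). On Au_TCPP the alternatives split, with -0.26 for library totals alone (adjusted p = 0.0062) and 0.36 for the length offset (adjusted p = 0.0017). NRF1 is controlled by processing of its protein, which RNA does not show. Nfe2l2, which encodes the related factor NRF2, was lower with Cu_TCPP, at 72 ± 5.77 CPM against 120.3 ± 5.77 CPM in Control (adjusted p = 2.7e-04). It stood at 125 ± 24.2 CPM in Au_TCPP without a call (adjusted p = 0.67, and -0.37 with library totals alone, adjusted p = 0.0048). Mafk and Maff, small MAF partners of both factors, rose 6.35-fold and 6.24-fold with Au_TCPP, and 1.4-fold and 1.3-fold with Cu_TCPP, while Mafg was called with neither. Ddi2, the protease that activates NRF1, was higher with Cu_TCPP (0.37 ± 0.09) and not called with Au_TCPP (-0.03 ± 0.09, and 0.36 with the offset for length, adjusted p = 0.0015).

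Of 11 tested genes that bring substrates to the proteasome, 8 were called higher and 2 lower with Au_TCPP (34.4 and 34.7% of all genes), and 6 higher and 3 lower with Cu_TCPP (19.2 and 21.2% of all genes). Vcp, the ATPase that extracts ubiquitinated proteins from complexes and membranes, had 839, 605 and 995 CPM in Au_TCPP, 514, 592 and 581 CPM in Cu_TCPP and 401, 387 and 408 CPM in Control. It rose 2.04-fold with Au_TCPP and 1.41-fold with Cu_TCPP. Zfand2a, an arsenite-inducible gene of a proteasome-associated protein, had 1318, 815 and 1699.9 CPM in Au_TCPP, 31.2, 32.4 and 27.9 CPM in Cu_TCPP and 53.7, 53.6 and 64 CPM in Control. It rose 22.4-fold with Au_TCPP and was lower with Cu_TCPP (-0.90 ± 0.22, adjusted p = 0.0063). Zfand5, which encodes a proteasome activator, rose 4.53-fold with Au_TCPP and was lower with Cu_TCPP (-0.34 ± 0.10). The ubiquitin shuttles diverged. Ubqln1 and Rad23b rose 3.07-fold and 1.7-fold with Au_TCPP, while Ubqln4 was lower there (-0.41 ± 0.08). With Cu_TCPP, Ubqln4 was higher (0.45 ± 0.08). Among the Cu_TCPP calls named here, those of Usp14, Ube3c, Maff and Zfand5 ended without at least 1 Cu_TCPP or Control library (adjusted p = 0.051 to 0.084).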

How the data were processed

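Polyadenylated RNA was measured in 9 libraries, 3 per group, grouped by title. The submitters' processing notes name mm10, Bowtie 0.12.9, Cufflinks 2.1.1 and HTSeq; no source used here says whether counting was by strand. The authors deposited raw read counts per gene, per the file headers. The authors also deposited FPKM, per the file headers, in which each library carries an extra factor of 0.875 to 1.238 whose origin is not stated. The authors' own comparison columns were not used. The genes, lists and alternatives were chosen with earlier results of these data known, and the genes named are family members or members of those lists. The values of 1 further listed gene are not reported here.

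Counts entered edgeR 4.0.16 (R 4.3.3): TMM factors, the default expression filter (minimum count 10), 1 robust quasi-likelihood model with a mean for each of the 3 groups, and p-values adjusted by Benjamini-Hochberg over 13915 genes. The biological coefficient of variation was 10.6%, and a standard error is the absolute log2 fold change over the square root of F. Replicates differed by more than sampling noise (chi-square over degrees of freedom 2.62 to 40.6). Alternatives were RLE factors, library totals, no filter or 1 CPM in 3 libraries, DESeq2 1.42.0, the 6 libraries compared, a replicate block, an offset from a spline of gene length (5 degrees of freedom), limma 3.58.1 on log2 of FPKM plus 1 or 0.1, and leaving out each library. The code was tested on simulated data. Proteasome pseudogenes, which could share reads, held 11 counts in all. Exon overlaps came from GENCODE M21 and promoters from RefSeq. Tables and figures were made with Python 3.11.15, pandas 2.3.3 and matplotlib 3.10.9.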

Additional observations from a re-analysis of the deposited data

How the results depend on the processing

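The family medians stayed above 0 in every alternative run, while their size moved. In Cu_TCPP against Control the median log2 fold change was 0.42 with RLE factors, 0.34 with library totals alone, 0.42 with no filter on low counts, 0.42 with DESeq2, 0.48 with the offset for gene length and 0.43 with limma on log2(FPKM + 0.1), in place of 0.39. With library totals alone it was 0.78 in Au_TCPP against Control and 0.37 in Au_TCPP against Cu_TCPP. In the latter 3 family genes were called lower in place of 1, beside 6526 of all genes in place of 4362. A scale factor moves all genes alike: less the median of all genes, the family stood at 1.22 and 1.21 (Au_TCPP against Control), 0.72 and 0.70 (Au_TCPP against Cu_TCPP) and 0.40 and 0.40 (Cu_TCPP against Control) with TMM and with library totals. With library totals alone, the fold changes in Au_TCPP against Control changed sign for Psmd2 (-0.029), Psmd9 (-0.078), Psmd10 (-0.13), Psme3 (-0.00030), Psme4 (-0.034), Nfe2l1 (-0.26) and Nfe2l2 (-0.37), and in Au_TCPP against Cu_TCPP for Psmd2 (-0.37) and, with no call on either scale, Psmd9 (-0.14), Psmd10 (-0.19) and Psmd13 (-0.16). With the offset for gene length they changed sign for Ecpas (0.36, and 0.23 against Cu_TCPP), Ddi2 (0.36) and Faf2 (0.25), and against Cu_TCPP, with no call in either fit, for Psmd2 (-0.0066), Psmd10 (-0.21) and Psme4 (0.25). Other uncalled genes outside the family also changed sign in these fits. Psmb9 in Au_TCPP against Control ran from -0.46 to 0.81 as each library was left out. The cause was not tested.

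Leaving out each library in turn gave 36 to 38 genes called higher (median 1.11 to 1.34) in Au_TCPP against Control, 29 to 35 (0.65 to 0.92) in Au_TCPP against Cu_TCPP, and 18 to 31 (0.37 to 0.41) in Cu_TCPP against Control, lowest without Control replicate 1. Of all 13915 genes tested, 4341 to 4949, 4386 to 4945 and 1952 to 3521 were called higher in the same fits. Replicate numbers did not pair the libraries, as deviations of same-numbered libraries correlated between -0.085 and 0.090. With a replicate block, 38, 32 and 26 genes were called higher, as many as without it, and the medians were 1.20, 0.73 and 0.39. At this depth Psma8 and Psmb11 could not be tested.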
